A study of Mus musculus with 5 samples.

Results

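The genes of the cytokines IL-6, IL-10 and IL-27 and of their receptors were examined in dendritic cells given a histone deacetylase inhibitor or its diluent. The 9 genes were chosen by name: Il6, Il10, Il27 and Ebi3 code for the cytokine chains, and Il6ra, Il6st, Il10ra, Il10rb and Il27ra for the receptor chains. They are 9 of 14131 protein-coding genes for which the deposited region lists give a transcription start. The lists give a start only for a gene to which they assign a region. A region belonged to a gene when the lists assigned it to that gene or when it lay within 5 kb of the listed start. By this rule 18 of 22255 H3K4me3 regions belonged to the 9 genes in diluent (0.0809%) and 22 of 25723 in SAHA (0.0855%). Of the STAT3 regions, 4 of 3507 did in diluent (0.114%) and 4 of 8552 in SAHA (0.0468%).

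The cells were cultured from bone marrow of C57BL/6 female mice aged 10 weeks, grown for 7 days with 10 ng/mL of both IL-4 and GM-CSF, and cells bearing CD11c were selected to a stated purity of 95%. They received SAHA (vorinostat), at a dose that the labels write as 500 nm, or diluent, each for 12 hours. Chromatin immunoprecipitation sequencing (ChIP-seq) was made for STAT3 and for H3K4me3 in both conditions and for rabbit IgG in diluent only, so each of these 5 groups had 1 library. The sources used here do not give the number of animals that the marrow came from. With 1 library per group, every difference between conditions below compares 2 libraries, has no replicate check and carries no p-value.

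IL-6 is a cytokine that binds the IL-6 receptor chain (Il6ra), and the pair then engages gp130 (Il6st), which signals through JAK kinases and STAT3. IL-10, a cytokine that restrains myeloid cells, binds Il10ra and Il10rb and also signals through STAT3. IL-27 is a heterodimer of the chains encoded by Il27 (p28) and Ebi3, and it signals through Il27ra together with gp130, by JAK kinases and STAT proteins that include STAT3. Dendritic cells can make all of these cytokines and can respond to them. H3K4me3 is a histone mark found around the starts of active or poised genes, most often where CpG dinucleotides are dense.

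The reference promoter table held 4 of the 9 genes: Il6, Ebi3, Il6ra and Il6st. The sequences of Il6, Ebi3 and Il6st are shown because they differ widely in CpG content while all of them carried H3K4me3. Each runs from 250 bases before to 50 bases after the RefSeq start (GRCm38.p6), 5′ to 3′ on the strand of the gene, and the capitals mark CpG dinucleotides. These windows are placed by their gene's start and were not converted to mm9, the build of the regions.
Il6 (chr5:30012864-30013163, plus strand): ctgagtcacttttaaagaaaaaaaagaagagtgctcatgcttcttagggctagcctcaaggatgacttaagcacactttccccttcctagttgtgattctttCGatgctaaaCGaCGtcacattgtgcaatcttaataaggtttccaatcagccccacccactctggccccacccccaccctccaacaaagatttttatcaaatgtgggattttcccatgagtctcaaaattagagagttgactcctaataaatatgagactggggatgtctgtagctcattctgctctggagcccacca
Ebi3 (chr17:55952373-55952672, plus strand): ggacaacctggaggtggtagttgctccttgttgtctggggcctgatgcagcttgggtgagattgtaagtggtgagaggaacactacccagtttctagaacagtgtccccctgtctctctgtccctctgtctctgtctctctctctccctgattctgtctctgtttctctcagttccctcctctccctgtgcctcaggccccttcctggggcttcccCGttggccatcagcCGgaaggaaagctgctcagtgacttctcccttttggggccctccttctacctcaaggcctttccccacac
Il6st (chr13:112463820-112464119, plus strand): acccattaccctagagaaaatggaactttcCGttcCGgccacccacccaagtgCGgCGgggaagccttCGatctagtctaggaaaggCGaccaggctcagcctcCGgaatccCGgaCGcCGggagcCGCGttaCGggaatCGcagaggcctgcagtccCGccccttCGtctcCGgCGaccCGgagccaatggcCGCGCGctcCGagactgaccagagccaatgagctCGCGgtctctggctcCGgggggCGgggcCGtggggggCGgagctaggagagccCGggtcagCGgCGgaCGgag

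The Il6 window held 3 CpGs and the Ebi3 window 2, against 33 in the Il6st window and 25 in the Il6ra window. The median over 32851 RefSeq promoter windows was 7.00. The 2 cytokine windows thus lay below that median and the 2 receptor windows above it. The ratio of observed to expected CpG was 0.214 for Il6, 0.0866 for Ebi3, 0.769 for Il6ra and 0.943 for Il6st, where the median was 0.384. Of 7 motifs searched on both strands, the STAT motif TTCNNNGAA, present in 8.30% of all windows, had no match in any of the 4. The Il6 window matched an NF-kB motif as GGGATTTTCC at bases -44 to -35 from the start, a motif present in 0.411% of all windows. It also matched the AP-1 motif TGANTCA as TGAGTCA at bases -249 to -243 (7.81% of all windows). The Il6st window had 3 matches to the GC box GGGCGG (35.7% of all windows). The Ebi3 and Il6ra windows matched none of the 7, which also included a stricter NF-kB sequence contained in that motif (0.155%), the CRE sequence TGACGTCA (1.79%) and the TATA box TATAAA (13.6%). A match is a run of letters and not a measured site.

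The libraries gave 19504014 to 27920130 reads, and 17810183 to 25013431 tags stayed after duplicates were limited. The STAT3 library in SAHA was the lowest in both counts and the STAT3 library in diluent the highest. The STAT3 regions and scores compared below were not adjusted here for this difference in depth. Per the file headers, both H3K4me3 libraries shared a flow cell, and the STAT3 and IgG libraries shared another. Of the dendritic cell markers, 9 of 9 carried H3K4me3 within 5 kb in both libraries, with 192 and 141 tags at Itgax, which codes for CD11c. So did 6 of 6 macrophage and monocyte markers with a listed start, 2 of 2 granulocyte and 2 of 2 erythroid markers, 1 of 3 T cell markers (Cd3d) and 0 of 2 NK cell markers. Of all genes with a listed start, 84.2% did in diluent and 85.2% in SAHA, so 9 of 9 or 6 of 6 does not set a cell type apart. The markers looked up were 5 for granulocytes, 3 erythroid, 6 for T cells and 3 for NK cells. Those to which no region was assigned have no listed start and are not in these counts. The T cell markers Cd4 and Cd8b1 and the NK cell markers Klrb1c and Eomes had no H3K4me3 region in either library. Over all 11374 genes with tags in both libraries, the median log2 H3K4me3 ratio of SAHA over diluent was -0.04 (-0.13 per kb of called region). Over the markers with such tags the median was 0.31 at 9 dendritic cell markers (-0.13 per kb, the opposite sign), -0.15 at 6 macrophage markers (-0.37 per kb) and 0.37 at 2 erythroid markers (0.28 per kb). The 2 granulocyte markers differed, with 0.26 at S100a8 (interval -0.20 to 0.71) and 2.11 at Elane, which had 33 tags in diluent and 136 in SAHA. What other cells add to the values of the 9 genes was not tested, and a change in the mark per cell cannot be told apart from a change in the share of cells that carry it.

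STAT3 regions lay near Il6 and Il10 in diluent and near Il6ra in SAHA. In diluent, 2 of the 9 genes carried a STAT3 region within 5 kb of the start, where 6.39% of all 14131 genes did. In SAHA, 1 of the 9 did, where 18.3% of all genes did. None of the 9 genes carried such a region in both libraries, where 1.83% of all genes did. Lack of overlap was the rule in these lists. Of all STAT3 regions, 6.67% in diluent and 2.76% in SAHA overlapped a region of the other condition. Of the 4 STAT3 regions per condition that belonged to these genes, 2 overlapped an H3K4me3 region of the same condition in diluent (Il6 and Il10), where 24.9% of all STAT3 regions did, and 2 in SAHA (Il6ra and Il10ra), where 27.2% did. No tag count exists for any STAT3 region of these genes, because no region was called there in the single-library tables, so STAT3 is described by position and by the score of the list alone. No IgG region overlapped a region of the 9 genes, and the nearest one lay 128 kb from a start, that of Il10rb. The IgG library had only 606 called regions, so this lack of overlap says little about background at these genes.

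At Il6, the gene of the inflammatory cytokine IL-6, the diluent STAT3 region ran from 926 bp before to 678 bp after the start (chr5:30338775-30340379, mm9). It covered the start and lay wholly inside an H3K4me3 region. In the authors' deposited table it scored 63.42, at rank 116 of 3507 regions. In SAHA the nearest STAT3 region lay 24.6 kb upstream of the Il6 start and was assigned to AK039125, with a score of 31.64 in the authors' deposited table, where the lowest score was 30. So the SAHA list had no STAT3 region over or beside the Il6 start. Most regions of the whole diluent list likewise overlapped no SAHA region.

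At Il10, the diluent STAT3 region lay inside the transcript, 809 to 1865 bp after the start (chr1:132917231-132918287). In the authors' deposited table it scored 31.66, close to the lowest score of 30. Its whole length lay in an H3K4me3 region of the diluent library. The nearest STAT3 region in SAHA was 77.1 kb downstream of the Il10 start and was assigned to Mapkapk2, a kinase gene. The 2 cytokine genes with STAT3 in diluent thus differed in where the region lay, over the start at Il6 and inside the transcript at Il10.

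Il27 and Ebi3, which code for the chains of IL-27, had no STAT3 region within 5 kb in either library. The nearest to Il27 lay 9.56 kb downstream of its start in diluent, assigned to Apob48r, and 176 kb away in SAHA. The nearest to Ebi3 lay 6.04 kb downstream in SAHA (chr17:56098081-56098815), overlapped H3K4me3 and was assigned to Ccdc94, and the nearest in diluent was 682 kb away.

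At Il6ra, the gene of the chain that binds IL-6, the SAHA STAT3 region lay 1395 to 1931 bp after the start (chr3:89715153-89715689), inside the transcript. It spanned the gap between 2 H3K4me3 regions of the SAHA library and overlapped both. In the authors' deposited table it scored 53.67, at rank 737 of 8552 regions. In diluent the nearest STAT3 region lay 168 kb from the Il6ra start. That single interval was the only STAT3 region within 5 kb of any of the 5 receptor genes in either library.

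Il10ra, the gene of the IL-10-binding chain, was the one gene of the 9 at which a STAT3 region was shared, and it lay at the end of the transcript. In diluent that region covered chr9:45060570-45061560 (991 bp) and in SAHA chr9:45060292-45062301 (2010 bp), so the diluent region lay wholly within the SAHA region. Over their whole lists, 6.67% of the diluent regions and 2.76% of the SAHA regions overlapped one of the other condition. In the authors' deposited table the SAHA region scored 114.47, at rank 17 of 8552, and the diluent region 33.26, at rank 2223 of 3507. These scores come from libraries of different depth and were not scaled to it here. The SAHA region crossed the transcript end and overlapped an H3K4me3 region of the SAHA library by 55 bp, and the diluent region lay just beyond the transcript end, outside H3K4me3. Unshared regions assigned to Il10ra lay 5.52 kb before the start in diluent, just outside the 5 kb limit, and 27.5 to 30.0 kb after it in SAHA, in a pair.

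**Figure D1:**
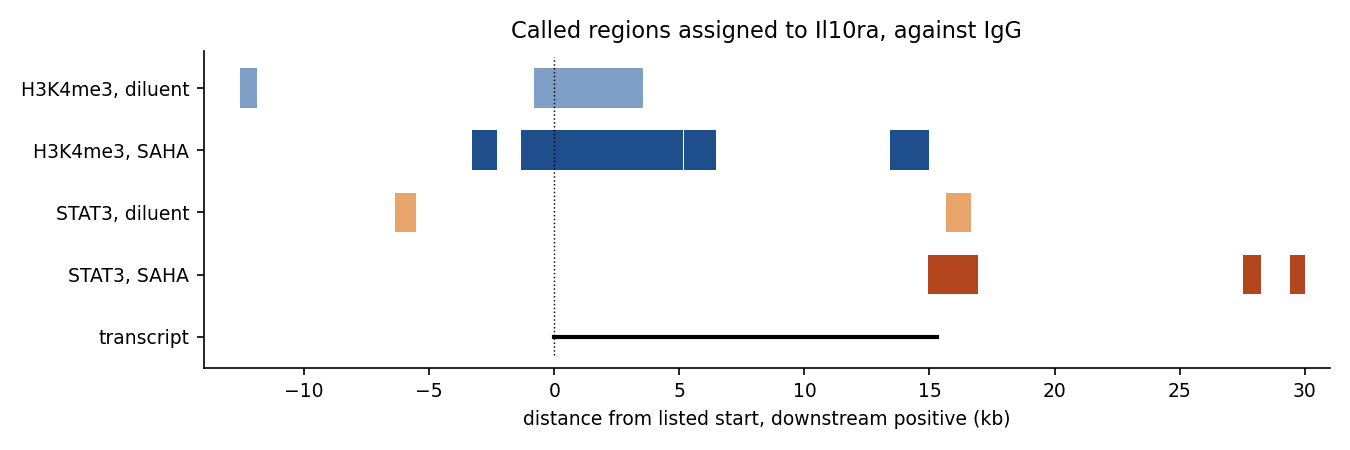
Regions assigned to Il10ra in the 4 lists against IgG, by distance from the listed start in kb, with the transcript as a black line. The STAT3 bars of both conditions meet at the transcript end, where 991 bp are shared, and the H3K4me3 bar over the start is 4358 bp long in diluent and 6493 bp in SAHA.

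Il6st, Il10rb and Il27ra, the genes of gp130, the shared IL-10 receptor chain and the IL-27-binding chain, had no STAT3 region within 45 kb in either library. The nearest to Il6st lay 80.5 kb away in diluent and 81.1 kb away in SAHA. The nearest to Il10rb lay 45.7 and 54.3 kb away, and the nearest to Il27ra 207 and 45.6 kb away. The gene of the receptor chain that IL-6 and IL-27 share thus had no STAT3 region near its start in either list. This is common, since 6.39% of all genes carried one within 5 kb in diluent and 18.3% in SAHA. The distance to the nearest STAT3 region was not computed for all genes.

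H3K4me3 covered the start of every one of the 9 genes in diluent, and of every one but Il10 in SAHA. All 9 carried an H3K4me3 region within 5 kb in both libraries, where 84.2% of all genes did in diluent and 85.2% in SAHA. Some regions called against IgG have no counterpart in the single-library tables and so no tag count. The counts below are the tags of the single-library regions over each gene's own H3K4me3 locus, which is the joined overlapping regions of both lists.

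**Figure D2:**
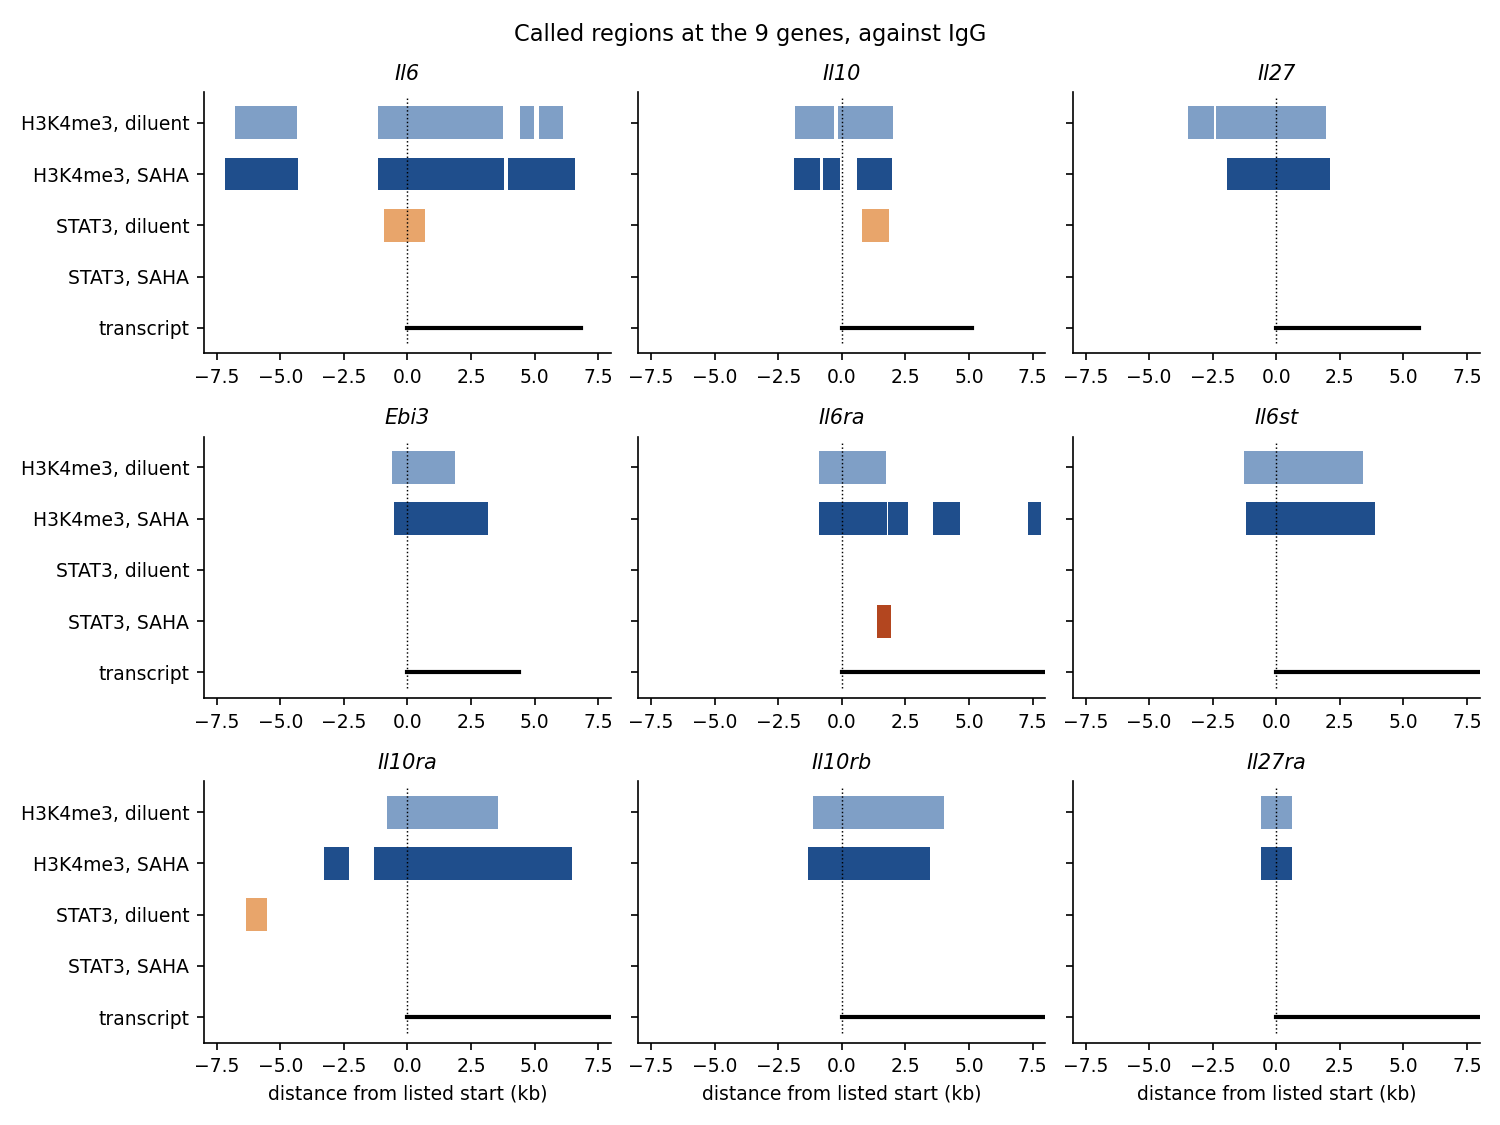
Regions of the 4 lists against IgG that belong to each of the 9 genes, by distance from the listed start in kb (downstream positive), with the transcript as a black line cut at the panel edge. STAT3 bars stand near Il6, Il10 and Il10ra in diluent and near Il6ra in SAHA, and the H3K4me3 bar over the start of Il10 is missing in SAHA.

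The marked level, given as tags per kb of called region, scaled to 1000000 filtered tags, ranged over the genes from 4.45 at Il10 to 32.2 at Il10ra in diluent and from 2.61 to 28.5 in SAHA, at the same genes. In diluent the order was Il10ra, Il6 (24.5), Il6st (19.5), Il10rb (15.3), Il6ra (11.5), Il27 (7.94), Il27ra (6.61), Ebi3 (6.55) and Il10. The counting intervals of Il27 and Il27ra overlapped, as did those of Il27ra and Ebi3, and the other neighbours in the order were apart. The median over 11374 genes with tags in both libraries was 17.0 in diluent and 15.5 in SAHA, so Il10ra, Il6 and Il6st lay above it in both. In SAHA, Ebi3 (13.0) stood next to Il10rb (13.3) and above Il6ra (10.9), Il27ra (9.22) and Il27 (6.01). The intervals of Ebi3 and Il10rb overlapped there, as did those of Il6ra and Il27ra. Il10ra stood at percentile 99.4 of all genes in diluent and 99.3 in SAHA on this scale.

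**Figure D3:**
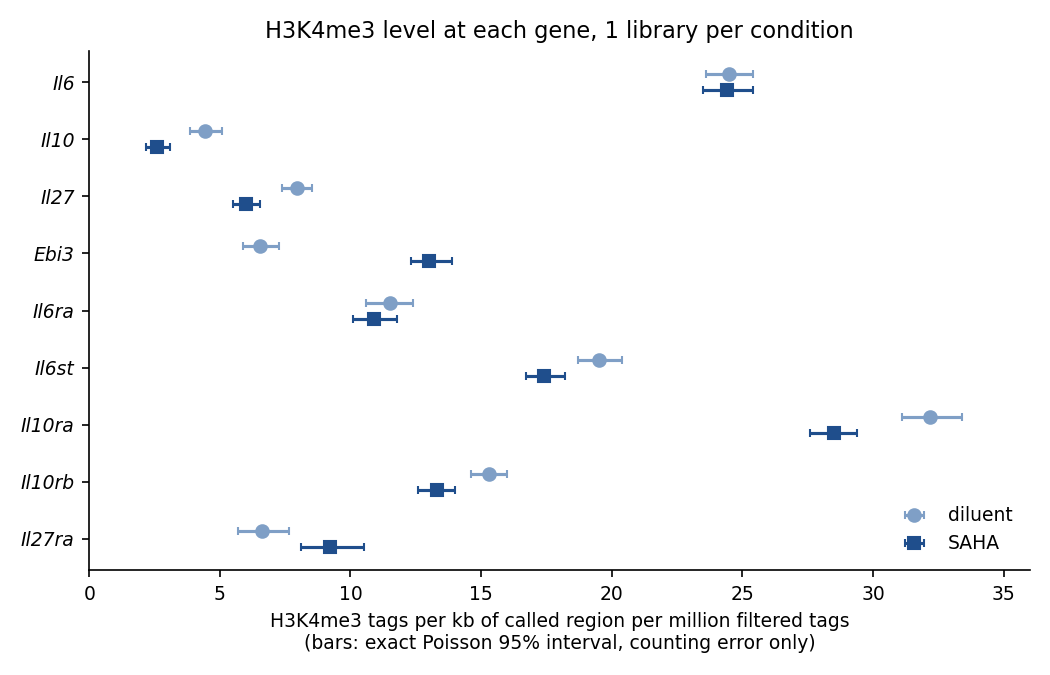
H3K4me3 level at each gene as tags per kb of called region, scaled to 1000000 filtered tags, with exact Poisson 95% intervals that cover counting error only; circles are diluent and squares SAHA. Il10ra and Il6 stand highest in both libraries, and Ebi3 goes from 6.55 to 13.0.

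The 9 genes together had no common direction of H3K4me3 between the libraries. The log2 ratio of SAHA over diluent, after scaling to filtered tags, had a median of -0.03 over the 9 genes and -0.04 over all 11374. At least 2-fold higher was 1 of the 9 (Ebi3), where 2.53% of all genes were, and 0 of the 9 were at least 2-fold lower over the whole locus, where 0.536% were. The 95% interval, which covers counting error only, lay above 0 at 3 genes (Ebi3, Il10ra and Il27ra), where it did at 21.6% of all genes. It lay below 0 at 3 (Il10, Il27 and Il10rb), where it did at 31.2%. Per kb of called region the median was -0.16 over the 9 and -0.13 over all genes, and 0 of the 9 were 2-fold apart in either direction, where 0.431% of all genes were higher and 0.0440% lower. Per kb the interval lay above 0 at 2 genes (12.3% of all genes) and below 0 at 5 (47.4%).

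**Figure D4:**
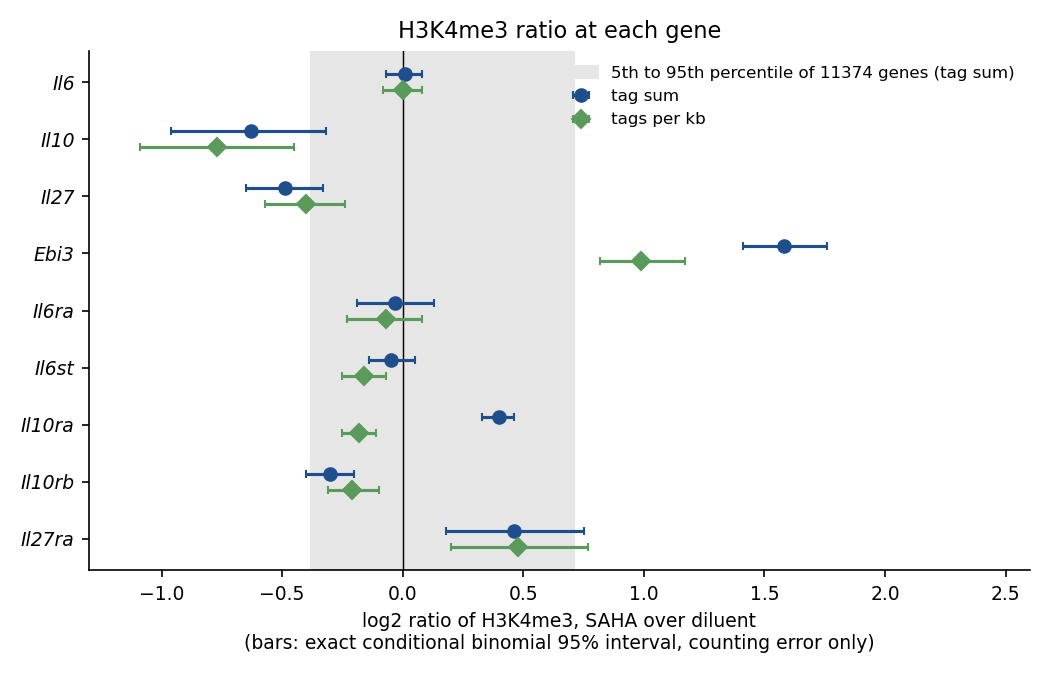
Log2 ratio of H3K4me3 in SAHA over diluent at each gene, as the tag sum (circles) and per kb of called region (diamonds), with exact conditional binomial 95% intervals; the grey band runs from -0.38 to 0.71, the 5th to 95th percentile of the tag sum over all genes, and applies to the circles (per kb the range is -0.47 to 0.47). By tag sum Ebi3 lies right of the band and Il10 and Il27 left of it, per kb Il27 at -0.40 is inside the per kb range, and Il10ra lies above 0 by tag sum and below 0 per kb.

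Ebi3 and Il27 code for the partner chains of IL-27, and their H3K4me3 ratios lay on opposite sides of 0. Ebi3 had 363 tags over 2473 bp in diluent and 1039 over 3718 bp in SAHA, a log2 ratio of 1.58 (95% interval 1.41 to 1.76) and 0.99 per kb (0.82 to 1.17). The Ebi3 region began 601 bp before the start in diluent and 545 bp before it in SAHA, and its far edge lay 1871 bp after the start in diluent and 3172 bp after it in SAHA. The added length therefore lay inside the transcript. Among all genes, 71 had a higher ratio by tag sum and 50 per kb.

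Il27 had 768 tags over 4312 bp in diluent and 523 over 4063 bp in SAHA, a log2 ratio of -0.49 (-0.65 to -0.33) and -0.40 per kb (-0.57 to -0.24). An additional upstream region, 2463 to 3477 bp before the Il27 start, was listed in diluent only, with a score of 77.09 in the authors' deposited table. The upstream edge of the mark was thus nearer to the start in SAHA, and the downstream edge lay at 1956 bp in diluent and 2110 bp in SAHA. Ebi3 was the lower of the 2 in diluent per kb (6.55 against 7.94) and the higher in SAHA (13.0 against 6.01).

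By the log2 tags and log2 widths in both libraries (4 values), the genes most like Ebi3 were C3, the central complement component, at a distance of 0.216, Sla (0.413) and H2-Oa (0.424), which codes for a chain of the MHC class II accessory molecule DO. C3 had 404 tags in diluent and 1053 in SAHA. Nearest to Il27 were Dpysl5 (0.204), Ly86 (0.238), which codes for the partner of an LPS-receptor homologue, and Ptchd1 (0.240). Dpysl5 had 763 tags in diluent and 549 in SAHA.

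Il10 had the lowest H3K4me3 level of the 9 in both libraries, and its called regions left the start uncovered in SAHA. Tags were few at this locus, and whether the mark itself is absent from the uncovered stretch was not tested. In diluent, 1 region ran from 171 bp before to 1995 bp after the start, with 216 tags. In SAHA no region covered the start: regions lay 857 to 1865 bp before it (53 tags), 85 to 734 bp before it (no count), and 592 to 1961 bp after it (80 tags). The diluent list also had a region 310 to 1845 bp before the Il10 start, without a count, so the upstream piece enters the sum over the locus in SAHA only. Over the locus the log2 ratio was -0.63 (-0.96 to -0.32) and -0.77 per kb (-1.09 to -0.45). The SAHA piece inside the transcript, of 1370 bp, holds the diluent STAT3 interval. Against the longer diluent region over the start, of 2167 bp, its log2 ratio was -1.37 by tags (-1.76 to -0.99) and -0.71 per kb (-1.09 to -0.33). Only the ratio by tags, which compares unequal lengths, is more than 2-fold lower. The strongest point of the mark lay 213 bp after the start in diluent and 1112 bp after it in SAHA.

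Il6 had the same H3K4me3 count over its start in both libraries within counting error, 2703 tags over 4924 bp in diluent and 2595 over 4956 bp in SAHA (log2 0.01, interval -0.07 to 0.08). The edges of this region differed by 3 bp upstream and 29 bp downstream. The regions beside it differed more. Upstream, a region assigned to AK039125 whose near edge lies 4350 bp before the Il6 start in diluent and 4317 bp in SAHA had 244 and 531 tags, a log2 ratio of 1.19 (0.97 to 1.41) and 0.97 per kb (0.74 to 1.19). Toward the end of the Il6 transcript, regions of 529 and 943 bp in diluent, with scores of 68.69 and 56.38 in the authors' deposited table, stood against 1 of 2630 bp in SAHA with a score of 1980.77. With all counted regions within 5 kb, Il6 had a log2 ratio of 0.15 (0.08 to 0.22), and the region near the transcript end has no tag count and is not in it.

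Il6ra and Il6st, the chains of the IL-6 receptor, had log2 ratios whose intervals held 0. Il6ra had 673 tags in diluent and 630 in SAHA (log2 -0.03, interval -0.19 to 0.13, and -0.07 per kb). In SAHA the lists placed 3 more H3K4me3 regions inside the Il6ra transcript, at 1811 to 2592, 3588 to 4630 and 7320 to 7817 bp after the start, with scores of 127.83, 90.01 and 50.63 in the authors' deposited table. The SAHA STAT3 region overlapped the first of these. Covered length within 5 kb of the Il6ra start was 2610 bp in diluent and 4516 bp in SAHA.

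Il6st had 2033 tags in diluent and 1883 in SAHA (log2 -0.05, interval -0.14 to 0.05, and -0.16 per kb, -0.25 to -0.07). A separate region 23641 to 24979 bp upstream of the Il6st start in diluent was also listed in SAHA, with 90 and 154 tags (log2 0.84, interval 0.46 to 1.23, and 0.51 per kb). Regions further upstream were listed in 1 library each, at 46.8 to 47.9 kb in diluent (52 tags) and at 65.2 to 65.8 kb in SAHA (28 tags).

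Il10ra carried more tags in SAHA over a longer region, at a lower density, so its direction turns with the scale. It had 3151 tags over 4358 bp in diluent and 3962 over 6493 bp in SAHA. The log2 ratio was 0.40 by tag sum (0.33 to 0.46) and -0.18 per kb (-0.25 to -0.11). The strongest point lay 183 bp after the start in both libraries. The downstream edge lay 3563 bp after the start in diluent and 5163 bp in SAHA, the upstream edge 794 and 1329 bp before it. SAHA also listed regions 2289 to 3280 bp before the start and at 5193 to 6455 and 13430 to 14982 bp after it, the last of them next to the shared STAT3 region. By tags, Il10ra stood at percentile 98.2 of all genes in diluent and 99.6 in SAHA.

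Il10rb, which serves receptors of several cytokines beside IL-10, had 1762 tags in diluent and 1370 in SAHA (log2 -0.30, interval -0.40 to -0.20, and -0.21 per kb, -0.31 to -0.10). The strongest point of Il10rb lay at -204 bp from the start in diluent and at 316 bp in SAHA. Il27ra had a short region, 1229 bp in diluent and 1215 bp in SAHA, with 182 and 240 tags (log2 0.46, interval 0.18 to 0.75, and 0.48 per kb, 0.20 to 0.77). Among the 9, this was the narrowest H3K4me3 locus in both libraries, at percentile 8.08 of all genes by width in diluent and 6.66 in SAHA. Its fold enrichment over the local background, the authors' value, was 22.0 in diluent and 20.4 in SAHA, where the region with the most tags at the other 8 loci had 4.98 to 13.2. By tags per kb, Il27ra stood only at rank 7 of the 9 in both libraries (6.61 in diluent and 9.22 in SAHA). The high fold is thus not a high level, and fold was not compared with all genes.

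The regions over the start reached to both sides of it, and the strongest point of the mark was mostly downstream. At 8 of the 9 genes the strongest point was downstream in both libraries, all but Il10rb, where 72.5% of all genes had this. The strongest points of the libraries lay within 100 bp of each other at 6 of the 9, against 72.9% of all genes, and 899 bp apart at Il10. Length covered within 5 kb of the start was greater in SAHA at 5 of the 9 (Il6, Ebi3, Il6ra, Il6st and Il10ra), where it was at 72.8% of 12195 genes with an H3K4me3 locus. It was 4358 bp in diluent and 7322 bp in SAHA at Il10ra, and 5327 and 4063 bp at Il27. These shares are near the background and describe the 9 genes without setting them apart.

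**Figure D5:**
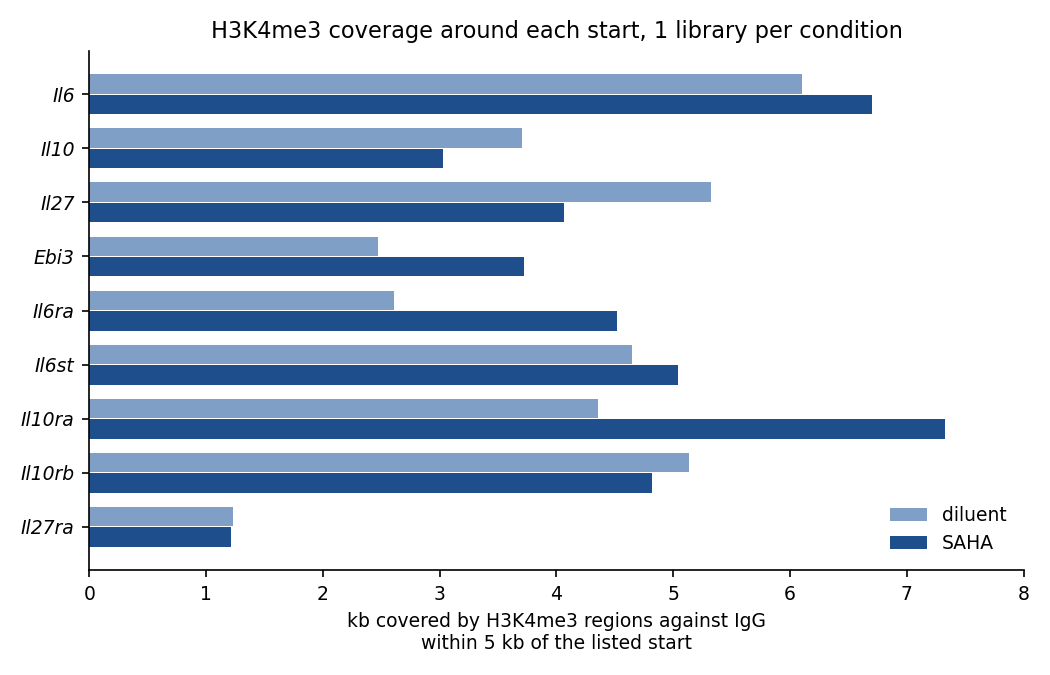
Length covered by H3K4me3 regions against IgG within 5 kb of the listed start, in kb, for each gene; light bars are diluent and dark bars SAHA, 1 library each. The SAHA bar is longer at Il6, Ebi3, Il6ra, Il6st and Il10ra, and the diluent bar at Il10, Il27, Il10rb and, by 14 bp, Il27ra.

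Of 41 symbols for related cytokines, receptors and signalling genes, among them 1 gene under both of its names, 33 had a listed start. Within 5 kb, 3 of the 33 carried STAT3 in diluent (6.39% of all genes) and 5 in SAHA (18.3% of all genes), and 28 carried H3K4me3 in each library (84.2% and 85.2% of all genes). Over the 23 with tags in both libraries the median log2 H3K4me3 ratio was 0.03. Osm, a gp130-family cytokine gene, carried STAT3 in SAHA at 440 to 1547 bp before the start, and Lif, its relative, at 2708 to 3978 bp after it. Socs3, which codes for the feedback inhibitor that binds gp130, had 2 STAT3 regions in SAHA, 2290 to 3127 and 4990 to 6076 bp after the start. Il12rb2, which codes for a receptor chain of IL-12, had one in diluent, 1937 to 2651 bp before the start. Il12rb1, the receptor chain of IL-12 and IL-23, had one in each library at different places, and Stat3 had one that overlapped between them.

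H3K4me3 was at least 2-fold higher in SAHA at 2 of the 23, where 2.53% of all genes were, and at 0 at least 2-fold lower, where 0.536% were. Per kb neither of the 2 was 2-fold higher. Il11, another gp130-family cytokine gene, had 31 tags in diluent and 95 in SAHA (log2 1.68, interval 1.08 to 2.32, and 0.98 per kb). Il12a, the gene of the p35 chain that pairs with the Ebi3 product or with Il12b, had 217 and 418 (log2 1.01, interval 0.77 to 1.25, and 0.20 per kb, -0.04 to 0.44). Of 10 symbols of the IL-10 family, 5 had a listed start. Of these 5, 1 carried H3K4me3 in each library, where 84.2% of all genes did in diluent and 85.2% in SAHA. It was the interferon lambda receptor gene Il28ra, with 501 tags in diluent and 734 in SAHA.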

How the data were processed

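The submitters' processing notes name BWA and the mm9 build. Regions were called in single libraries with MACS 1.4.0rc2 and no control, keeping 2 duplicate tags per site and p-values to 1e-05, per the file headers. For every region these deposited tables hold a tag count, a score and a fold enrichment, which is a ratio to local background. The authors' lists against IgG have no header and give a score and 1 gene per region, and the sources used here do not say how they were made. Their lowest score was 30 for STAT3 and 50 for H3K4me3.

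Listed genes were matched to RefSeq names (87.1% of 17024 symbols matched). Overlapping H3K4me3 regions of both lists were joined into loci. A gene took the locus over its start, or else the nearest within 5 kb, and the deposited tag counts were summed over it. Ratios used filtered tags and an exact conditional binomial 95% interval, with the calculation checked on simulated counts. The simulated counts held counting error only, at fixed loci. The check therefore says nothing about spread between libraries or about called regions whose edges differ. Il6 has 2 listed starts 160 bp apart, and positions refer to the first. Named genes were the 9 genes, related genes with a STAT3 region or a 2-fold ratio, and the 3 genes most like Il27 and Ebi3. The result of a further marker list is not reported here. The genes and lists were chosen with earlier results of these data known. The software was pandas 2.3.3, scipy 1.17.1 and numpy 2.4.6 under Python 3.11.15, with figures from matplotlib 3.10.9.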

Additional observations from a re-analysis of the deposited data

How the results depend on the processing

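The counts of STAT3 near the 9 genes depend on the limits used. Within 10 kb of a start in place of 5 kb, 4 genes carried a STAT3 region in diluent (Il27 and Il10ra beside Il6 and Il10) and 2 in SAHA (Ebi3 beside Il6ra). With a score of at least 40, 1 did in diluent (Il6), and 0 of the STAT3 regions of these genes were shared in either list, since the diluent region at the end of Il10ra scored 33.26 in the authors' deposited table. In the regions called without a control, 0 genes carried STAT3 in diluent and 0 in SAHA. Far fewer STAT3 regions were called that way, 844 in diluent and 784 in SAHA, against 3507 and 8552 in the lists against IgG. The share of all genes was not counted at these other limits, so these counts cannot be set against a background. Counts within 2 kb were the same as within 5 kb, and all 9 genes kept H3K4me3 in both libraries under each alternative run.

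Counted per kb, the log2 H3K4me3 ratio of Il10ra turned from 0.40 to -0.18 because its called region was longer in SAHA. The median log2 ratio over the 9 genes ran from -0.16 per kb to 0.01 with the median gene set to 1. Il10 had no value from 1 to 1 pairs with the same ends. No paired analysis was possible because each group had 1 library. Counting intervals do not cover the spread between libraries.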
